A study of Homo sapiens with 6 samples.

Results

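Interferon-stimulated genes are the genes that a cell switches on when interferon binds its receptors. In this series 49 of them, taken from a list of gene names, were followed in an ovarian cancer cell line whose transcription factor KLF5 had been knocked down. All 49 were found by symbol among the 29185 genes of the deposited table. SKOV3, the line used, was derived from a human ovarian adenocarcinoma. Polyadenylated RNA was sequenced from 3 libraries of SKOV3 cells carrying a control short hairpin RNA, called sh-NC and labelled WT, and from 3 libraries carrying a hairpin against KLF5, called sh-KLF5 and labelled as a KLF5 knockdown. According to the study's methods, knockdown sequences were placed in a pLKO.1-EGFP-Puro vector, delivered by lentiviral infection, and stable lines were kept by puromycin selection. The series therefore describes 1 cell line and 1 knockdown arm, and the sources used here do not say whether replicates were separate cultures or how many clones a line came from. The p-values below measure only the spread between these libraries, which may be technical.

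Interferons are secreted proteins that are made when sensors such as RIG-I and MDA5 meet foreign nucleic acid. Type I interferons and the lambda interferons act through JAK kinases on a complex that holds STAT2 and IRF9 and binds a DNA element called the interferon-stimulated response element (ISRE). Interferon gamma acts through another element, the gamma-activated site (GAS). The induced proteins block viral entry, destroy or trap viral RNA, present antigen and switch the pathway off again. Many tumour lines express part of this gene set without any added interferon.

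KLF5 itself, the targeted gene, had normalized counts of 4371, 4425 and 4494 in the sh-NC libraries and 1745, 1439.9 and 1436 in the sh-KLF5 libraries. The groups did not overlap, and the sh-KLF5 mean was 34.8% of the sh-NC mean (log2 fold change -1.53, SE 0.12, limma adjusted p = 2.47e-07). An exact two-sided permutation test over the libraries gave p = 0.1, the smallest it can give with 3 against 3. A normalized count is a number of reads divided by the size factor of its library, and a log2 fold change below 0 means lower in sh-KLF5. The libraries held 15852319 to 17543896 reads in sh-NC and 16009859 to 16871350 in sh-KLF5. Of the ovarian epithelial markers, KRT7, KRT8, KRT18, ERBB2 and PAX8 were present in every library, while WT1 was not in the table and KRT19 had 2 to 17 reads. Leukocyte markers other than CD14 summed to 2 to 5 reads per library. Among them CD68 shares 81.7% of its exonic bases with AC016876.2 on the same strand, so its count is less certain. CD14 itself had 151 to 391 reads, and a further marker, CD3E, was not in the table.

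Promoter sequence gives the first view of the set. RefSeq promoter windows of 300 bases (250 before to 50 after the start site, build GRCh38.p14) were at hand for 39 of the 49 genes. The ISRE core, searched on both strands as GAAA, any 2 bases and GAAA again, occurred in 24 of those 39 windows (61.5%) and in 3.57% of all 35116 promoter windows. Below are stretches from some of the genes that held a match before the start site. Letters matching this core are in capitals, and positions are counted from the start site. IFIT1, IFIT3, OAS3, IFI6 and IFI27 were lower in sh-KLF5, GBP1, IFI44L and PLSCR1 were higher, and IFIT5 and ISG15 passed the test in neither direction. The printed strand is that of the gene, 5′ to 3′, and stretches end before the start site, so another match in IFIT5 that spans it is not shown.
IFIT1, chr10:89392477-89392559, plus strand: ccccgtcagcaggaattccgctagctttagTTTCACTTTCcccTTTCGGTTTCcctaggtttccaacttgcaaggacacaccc
IFIT3, chr10:89327811-89327914, plus strand: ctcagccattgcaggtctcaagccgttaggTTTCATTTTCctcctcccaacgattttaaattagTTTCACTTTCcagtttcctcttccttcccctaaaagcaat
IFIT5, chr10:89414493-89414567, plus strand: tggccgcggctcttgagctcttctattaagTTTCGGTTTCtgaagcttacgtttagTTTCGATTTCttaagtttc
OAS3, chr12:112938301-112938473, plus strand: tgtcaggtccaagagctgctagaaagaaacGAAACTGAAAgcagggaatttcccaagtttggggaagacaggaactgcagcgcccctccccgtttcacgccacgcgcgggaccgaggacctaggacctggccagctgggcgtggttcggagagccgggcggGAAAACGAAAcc
IFI6, chr1:27672246-27672378, minus strand: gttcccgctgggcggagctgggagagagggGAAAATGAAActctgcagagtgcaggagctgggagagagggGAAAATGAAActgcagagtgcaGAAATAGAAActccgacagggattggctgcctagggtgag
IFI27, chr14:94110598-94110680, plus strand: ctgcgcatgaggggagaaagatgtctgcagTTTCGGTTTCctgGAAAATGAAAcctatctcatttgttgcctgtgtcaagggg
ISG15, chr1:1013354-1013429, plus strand: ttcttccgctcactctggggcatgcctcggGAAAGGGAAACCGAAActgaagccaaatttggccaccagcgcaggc
GBP1, chr1:89065296-89065365, minus strand: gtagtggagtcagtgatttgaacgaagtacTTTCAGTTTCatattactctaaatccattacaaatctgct
IFI44L, chr1:78620254-78620414, plus strand: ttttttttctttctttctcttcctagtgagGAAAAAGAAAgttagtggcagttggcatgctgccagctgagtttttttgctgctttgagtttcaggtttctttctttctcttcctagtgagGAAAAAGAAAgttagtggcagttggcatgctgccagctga
PLSCR1, chr3:146544647-146544716, minus strand: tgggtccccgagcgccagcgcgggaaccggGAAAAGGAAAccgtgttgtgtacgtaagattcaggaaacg

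In ISG15 the capital run holds 2 overlapping matches, and in the other printed stretches each capital run is 1 match. Matches were found among genes of every outcome, in 8 of the 11 genes with a window that were lower in sh-KLF5, 3 of the 4 that were higher and 12 of the 23 that passed in neither direction. EPSTI1, which had too few reads to test, made up the rest. In the 250 bases before the start alone, matches were in 6 of the 11, 3 of the 4 and 12 of the 23. Among the lower genes OAS1, which fell furthest, XAF1 and HERC6 had windows without a match. The same held for PSMB8 among the higher genes. The only match of MX1 lay after the start, at 11 to 20. No window was used for USP18, IRF7, MX2, OAS2, IFIT2, OASL, IFITM2, TRIM22, DHX58 and GBP2. The GAS core, TTCNNNGAA, was found in 11 of the 39 windows (28.2%, against 7.66% of all windows). A GC-rich pattern that KLF factors are known to prefer, searched as GGGNGGGG, was found in 13 (33.3%, against 37.7% of all windows). Such matches are strings of letters and say nothing of which factor was bound in these cells.

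**Figure D1:**
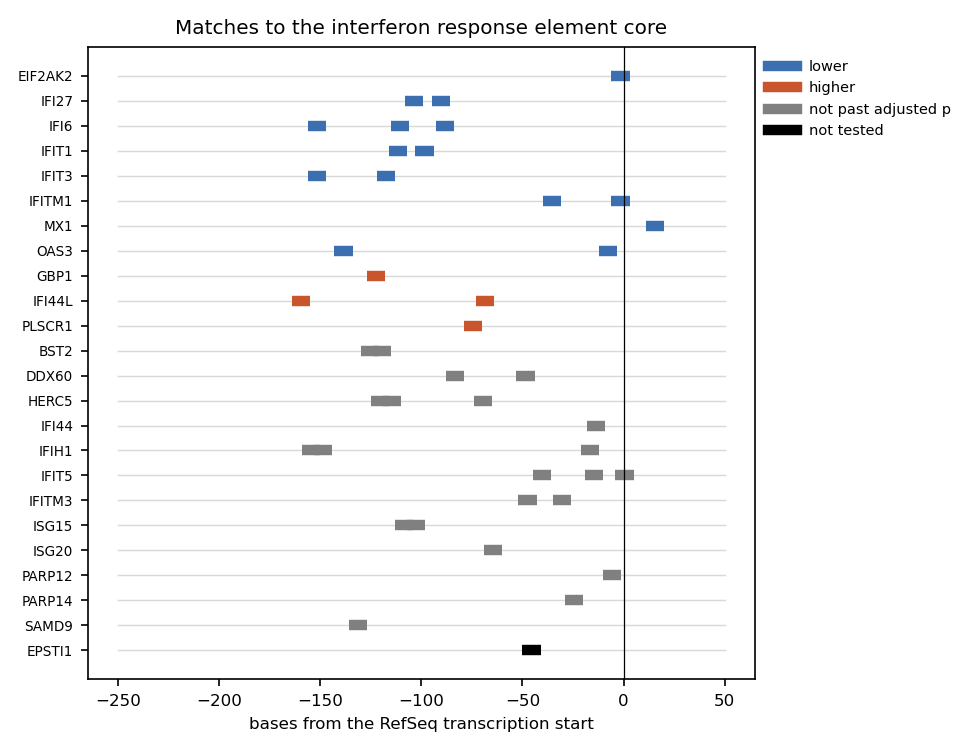
Positions of matches to the ISRE core in the promoter windows of the 24 interferon-stimulated genes that held one, with a line per gene and a bar per match. The horizontal axis is the distance in bases from the RefSeq start, where 0 is the start base, and colours mark the 8 lower genes, the 3 higher genes, the 12 that passed in neither direction and EPSTI1, which was not tested.

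The set moved in both directions, with more genes lower than higher. Of the 49 genes 48 had enough reads to test. In sh-KLF5, 16 were lower at a Benjamini-Hochberg adjusted p under 0.05 (33.3%, where 6.85% of all 15803 tested genes were lower by this rule), 6 were higher (12.5%, against 6.04%) and 26 passed in neither direction. With the further demand of a log2 fold change past 1, the 6 genes OAS1, IFI27, XAF1, MX2, MX1 and USP18 were lower (background 3.37%) and the 3 genes TRIM22, GBP2 and GBP1 were higher (background 1.9%), where 5.28% of all tested genes passed in either direction. The median log2 fold change of the 48 was -0.22, and that of all tested genes was -0.0023. The 3 sh-KLF5 libraries lay wholly below the 3 sh-NC libraries for 20 of the 48 (15.9% of all tested genes did so) and wholly above them for 7 (15.4% of all, and 31.3% either way).

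**Figure D2:**
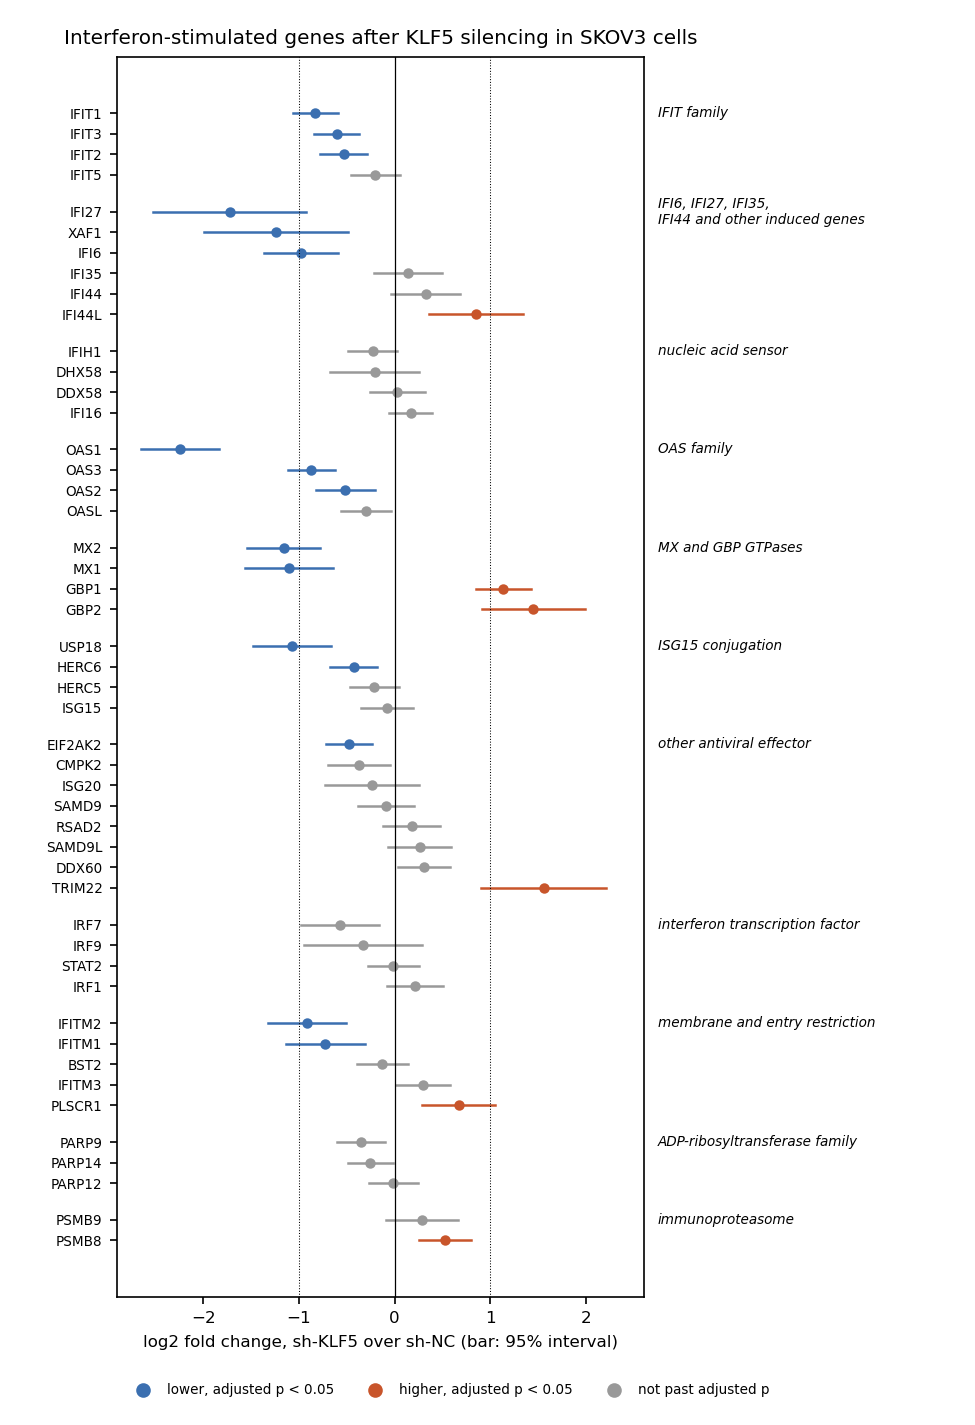
Log2 fold change of each tested interferon-stimulated gene, sh-KLF5 over sh-NC, grouped by role, with 95% confidence intervals from limma (3 libraries a group). Colours mark adjusted p under 0.05, lower (16 genes) or higher (6 genes). Values run from OAS1 at -2.24 to TRIM22 at 1.56.

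The IFIT proteins bind foreign RNA that lacks the host cap and block its translation. Their genes stand side by side at chr10:89283694-89421001 (build hg38, GENCODE 29, as for all gene positions here). IFIT1 had normalized counts of 11239, 11013 and 11006 in sh-NC and 5887, 6128 and 6765 in sh-KLF5. IFIT3, which stabilises IFIT1 on RNA, had 7857, 8278 and 8900.2 against 5460.01, 5185 and 5816. For IFIT2 the values were 8345, 7968 and 7624 against 6189.8, 4946 and 5463. All 3 genes were lower in every sh-KLF5 library than in any sh-NC library. The log2 fold changes were -0.83 for IFIT1 (SE 0.11, limma adjusted p = 7.95e-05), -0.60 for IFIT3 (adjusted p = 0.0014) and -0.53 for IFIT2 (adjusted p = 0.00555). IFIT2 missed the threshold when sh-NC library 1 was left out (adjusted p = 0.0504). IFIT5, 8099 bases beyond IFIT1, had 685, 657 and 619 against 625, 547 and 537, and the groups overlapped. Its log2 fold change of -0.20 had a 95% interval from -0.46 to 0.06, which did not overlap that of IFIT1, from -1.06 to -0.59.

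The IFIT genes made up a large share of the set. Summed over all 49 genes, normalized counts came to 76794 to 79393 per sh-NC library and 59995 to 67326 per sh-KLF5 library. IFIT1, IFIT2 and IFIT3 together made up 34.7% to 35.7% of that sum in sh-NC and 26.0% to 30.1% in sh-KLF5. Without IFIT1, IFIT2 and IFIT3 the sums were 49352 to 51863 and 41950 to 49789, so 1 sh-KLF5 library, library 1, then lay above the lowest sh-NC library. Scaled to exonic length and library size (RPKM), IFIT3 was at 192 ± 9.12 in sh-NC (SD, n = 3), IFIT1 at 146 ± 3.68 and IFIT2 at 118 ± 7.08. IFIT5 stood far below them, at 9.88 ± 0.657 RPKM.

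The OAS family makes the oligoadenylate messenger that turns on RNase L, which cuts viral and cellular RNA. OAS1 fell furthest of all 48 tested genes. In the sh-NC libraries its normalized counts were 285, 361 and 326, and in the sh-KLF5 libraries 79.5, 72.8 and 53.1 in sh-KLF5, which is 21.1% of the sh-NC mean (log2 fold change -2.24, 95% interval -2.65 to -1.83, limma adjusted p = 8.36e-07). OAS3 had 3362, 3958 and 3857 against 1855, 2149 and 2104 (log2 fold change -0.87, adjusted p = 8.09e-05). OAS2, in the same block at chr12:112906777-113011723, had 923, 945 and 938 against 812, 665 and 520.4. Its log2 fold change of -0.51 passed at an adjusted p of 0.0285, but passed only without sh-KLF5 library 1 among the 6 fits that left out 1 library (adjusted p up to 0.114 in the rest). In all 4 OAS genes the groups were separate, OASL included. OASL, a relative without synthetase activity that assists RIG-I, had 5917, 6244 and 7126 against 5899, 5086 and 4678, a log2 fold change of -0.30 that did not pass (adjusted p = 0.127). Along chromosome 12 the genes lie in the order OAS1, OAS3 and OAS2, and the interval of OAS1 did not overlap that of OAS3, 5129 bases away.

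MX1 and MX2 are dynamin-like GTPases that trap the nucleocapsids of viruses. MX1 had normalized counts of 96.8, 119 and 108 in sh-NC and 48.9, 55.3 and 45.1 in sh-KLF5 (log2 fold change -1.10, SE 0.22, limma adjusted p = 0.00224). MX2, its neighbour at chr21:41361943-41409390, had 174, 191 and 192 against 82.6, 92.2 and 74.2 (log2 fold change -1.16, adjusted p = 0.000325). Both were thus low in abundance and lower in every sh-KLF5 library, at 46.1% and 44.7% of the sh-NC means. GBP1 and GBP2, guanylate-binding GTPases that attack the vacuoles of intracellular microbes and respond strongly to interferon gamma, moved the other way. GBP1, at chr1:89052319-89065360, had 280.3, 301 and 299 in sh-NC and 719, 662 and 568 in sh-KLF5, a 2.21-fold higher mean (log2 fold change 1.14, SE 0.13, adjusted p = 2.19e-05). GBP2 had 43.8, 56.2 and 52 against 145, 195 and 95.3 (log2 fold change 1.45, adjusted p = 0.000928). Neither gene overlapped between groups, and their intervals overlapped each other. GBP2 shares 9.89% of its exonic bases with GBP7 on the same strand, so its reads are less certain than those of GBP1. Of their relatives outside the 49, GBP3 was higher too, while GBP4 (log2 fold change -0.02, adjusted p = 0.973) and GBP5 (0.18, adjusted p = 0.826) did not pass.

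**Figure D3:**
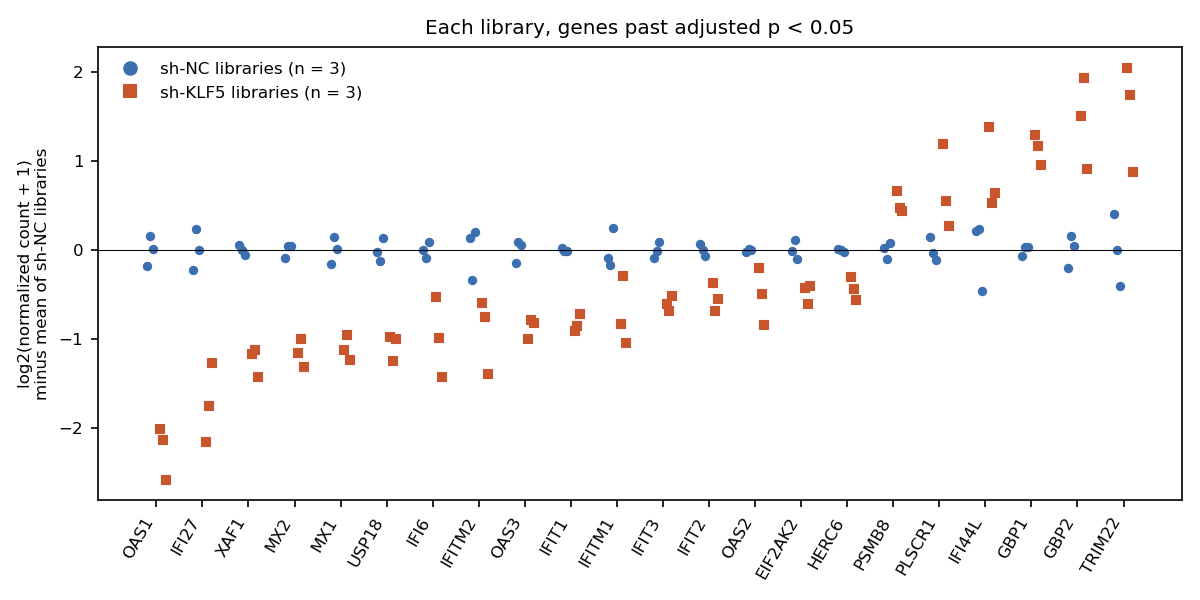
Each library of the 22 interferon-stimulated genes that passed the test, with genes along the horizontal axis and, on the vertical axis, log2(normalized count + 1) minus the mean of the 3 sh-NC libraries. Circles are sh-NC and squares sh-KLF5 libraries (3 each), and the groups are separate for every gene, with 16 below and 6 above.

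Among the small induced genes, IFI6, a mitochondrial and endoplasmic reticulum protein that blocks flavivirus replication, had normalized counts of 602, 567 and 641 in sh-NC and 419, 303 and 224 in sh-KLF5. IFI27, its relative in the same family, had 29.8, 41.4 and 35 against 7.13, 9.7 and 14. Every sh-KLF5 value was below every sh-NC value for both genes. IFI6 changed by -0.98 on the log2 scale (limma adjusted p = 0.00146), and by -1.21 without sh-KLF5 library 1. IFI27 changed by -1.72 (SE 0.38, adjusted p = 0.00543), but it rests on 7, 10 and 14 reads in sh-KLF5. XAF1, a pro-apoptotic antagonist of XIAP, had 32, 29 and 26 reads in sh-NC and 12, 13 and 10 in sh-KLF5 (log2 fold change -1.24, adjusted p = 0.0304). Among the 6 fits that left out 1 library it passed only without sh-KLF5 library 1 (adjusted p up to 0.12 in the rest), and 38.3% of its exonic bases lie opposite the noncoding gene PRAL, while the strand setting of the counting is not given in the sources used here.

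IFI44L, reported to temper interferon signalling, was higher in sh-KLF5. It had normalized counts of 179, 181 and 111 in sh-NC and 399.5, 222 and 239.6 in sh-KLF5 (log2 fold change 0.85, 95% interval 0.36 to 1.34, limma adjusted p = 0.0221). Without sh-NC library 3, its lowest, the change was 0.62 and did not pass (adjusted p = 0.14). Its neighbour IFI44 had 304, 291 and 234 against 441, 299 and 311, which overlap (log2 fold change 0.33, adjusted p = 0.244). IFI35 was likewise not separated, at 0.14 (adjusted p = 0.648). EPSTI1 had 0, 3 and 1 reads in sh-NC and 0, 2 and 0 in sh-KLF5, too few to test.

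ISG15 is a ubiquitin-like protein that is attached to other proteins by a ligase, HERC5, and removed by a protease, USP18, which also dampens the type I receptor. ISG15 was the most abundant of the 49 genes in sh-NC, at 229.7 ± 32.6 RPKM (SD, n = 3). Its normalized counts of 3161, 3329 and 4224 in sh-NC and 3382, 3577 and 3109 in sh-KLF5 overlapped, with a log2 fold change of -0.08 and a 95% interval from -0.35 to 0.19. USP18 had 151, 141 and 169 against 77.5, 64 and 76.2 (log2 fold change -1.07, limma adjusted p = 0.0011). The protease gene was lower in every sh-KLF5 library while the groups overlapped for the gene of its substrate. The intervals of these 2 changes did not overlap, since that of USP18 ran from -1.48 to -0.66. HERC5 had 2513, 2517 and 2628 against 2563, 2066 and 2016 and did not pass (log2 fold change -0.21, adjusted p = 0.284). Its neighbour HERC6 had 1053, 1046 and 1027 against 846, 772 and 709 (log2 fold change -0.43, adjusted p = 0.0217), and of the 6 fits that left out 1 library it passed only the one without sh-KLF5 library 1 (adjusted p up to 0.105 in the rest). ISG20, an RNA exonuclease named like ISG15 but unrelated to it, had a log2 fold change of -0.24 (adjusted p = 0.568).

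Proteins at the cell membrane split by gene. The IFITM proteins stiffen membranes against viral fusion. IFITM2 had normalized counts of 848, 612 and 885 in sh-NC and 512, 459 and 293 in sh-KLF5 (log2 fold change -0.91, limma adjusted p = 0.00409). IFITM1 had 275, 259 and 347 against 163, 239 and 140.4 (log2 fold change -0.72, adjusted p = 0.0215). Both were separate between groups, IFITM1 by a narrow gap. Without sh-NC library 3 or without sh-KLF5 library 3, IFITM1 did not pass (adjusted p = 0.134 and 0.0775). The 2 genes share 351 exonic bases on the same strand, 32.5% of those of IFITM1, and are close in sequence, so their reads are not independent. IFITM3, next to them on chromosome 11, had 2412, 1913 and 2434 against 2867, 3077 and 2372, with a log2 fold change of 0.30 (95% interval 0.02 to 0.58, adjusted p = 0.163). Its interval did not overlap that of IFITM1, from -1.14 to -0.31. BST2, or tetherin, which holds budding virions on the cell, was the next most abundant gene (217 ± 28.1 RPKM in sh-NC) and overlapped between groups (log2 fold change -0.13, adjusted p = 0.567). PLSCR1, a lipid scramblase, had 966, 854 and 807 against 1989.5, 1277 and 1055. It was higher (log2 fold change 0.67, adjusted p = 0.0217), with sh-KLF5 library 1 well above the other two, and it lost the call without sh-NC library 2 or 3 (adjusted p = 0.0812 and 0.116).

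EIF2AK2 encodes PKR, the kinase that halts translation when it binds long viral RNA duplexes. It had normalized counts of 2677, 2911 and 2529 in sh-NC and 2012, 1779.5 and 2035 in sh-KLF5. The groups were well apart (log2 fold change -0.48, limma adjusted p = 0.00988), although the adjusted p rose to 0.0519 and 0.0943 without sh-NC library 1 or 2. TRIM22, a ubiquitin ligase that restricts several viruses, showed the largest rise, from 47.5, 35.5 and 26.5 to 149.8, 121 and 66.2 (log2 fold change 1.56, 95% interval 0.91 to 2.21, adjusted p = 0.00233). Its sh-KLF5 libraries spread from 66 to 147 reads, all above the sh-NC maximum of 51. TRIM22 shares 10.7% of its exonic bases with OR56B1 on the same strand, so its reads are less certain. Of the antiviral effectors grouped with these, 6 did not pass: viperin (RSAD2) at 0.18, its neighbour CMPK2 at -0.37, SAMD9 at -0.08, SAMD9L at 0.26, DDX60 at 0.31 and ISG20 as above. CMPK2, a mitochondrial nucleotide kinase, was still lower in each sh-KLF5 library (328, 299.8 and 253 against 359, 342 and 437, adjusted p = 0.13).

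PSMB8, a catalytic subunit of the immunoproteasome that makes peptides for HLA class I, had 428, 392 and 447 normalized counts in sh-NC and 669, 584 and 571 in sh-KLF5. It was higher in every sh-KLF5 library (log2 fold change 0.52, limma adjusted p = 0.0114), but missed the threshold without sh-NC library 2 (adjusted p = 0.0865). Of its exonic bases 20.6% lie opposite PSMB8-AS1, which had only 13 to 23 reads per library. PSMB9, the partner subunit, had 136, 168 and 191 against 173, 224 and 205, a log2 fold change of 0.29 that did not pass (adjusted p = 0.34).

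The sensors and the factors that drive this gene set did not pass in the fit over all 6 libraries. RIG-I, listed as DDX58, had normalized counts of 3175, 3275 and 3349.8 in sh-NC and 4210.4, 3078 and 2861 in sh-KLF5, with 1 sh-KLF5 library above and 2 below the sh-NC range (log2 fold change 0.03, 95% interval -0.26 to 0.32). MDA5, listed as IFIH1, had 1112, 1157 and 999.5 against 1026, 911 and 852 (log2 fold change -0.23, limma adjusted p = 0.245), and passed without sh-KLF5 library 1 (adjusted p = 0.0472). LGP2, listed as DHX58, changed by -0.21 (adjusted p = 0.594). The DNA sensor IFI16 had 2203, 2132 and 2070.1 against 2392, 2399.6 and 2403. Those groups did not overlap, yet the log2 fold change was 0.17 with an interval from -0.06 to 0.39.

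STAT2 had 1504, 1573 and 1345 normalized counts in sh-NC and 1496, 1651 and 1252 in sh-KLF5, a log2 fold change of -0.01 (95% interval -0.28 to 0.25). IRF9, its DNA-binding partner, had 58, 64 and 33 reads against 32, 50 and 37, and 48.4% of its exonic bases are shared with AL136295.5 on the same strand. Its interval, from -0.95 to 0.28, was wide. IRF7, the amplifier of type I interferon genes, had 197, 253 and 300.3 against 168, 201 and 134 normalized counts, where 1 sh-KLF5 library lay above the lowest sh-NC library (log2 fold change -0.57, limma adjusted p = 0.063). It passed in DESeq2 (adjusted p = 0.0444), with no filter on low counts (0.0303) and without sh-NC library 1 (0.0387), sh-KLF5 library 1 (0.0479) or sh-KLF5 library 2 (just under 0.05). IRF1 had 329, 370.5 and 387 against 445, 447 and 367 (log2 fold change 0.21, adjusted p = 0.368). The ADP-ribosyltransferase genes PARP9, PARP12 and PARP14 did not pass either, though PARP9 (log2 fold change -0.35, adjusted p = 0.0621) and PARP14 (-0.25, adjusted p = 0.161) were lower in every sh-KLF5 library. PARP12 was at -0.01.

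**Figure D4:**
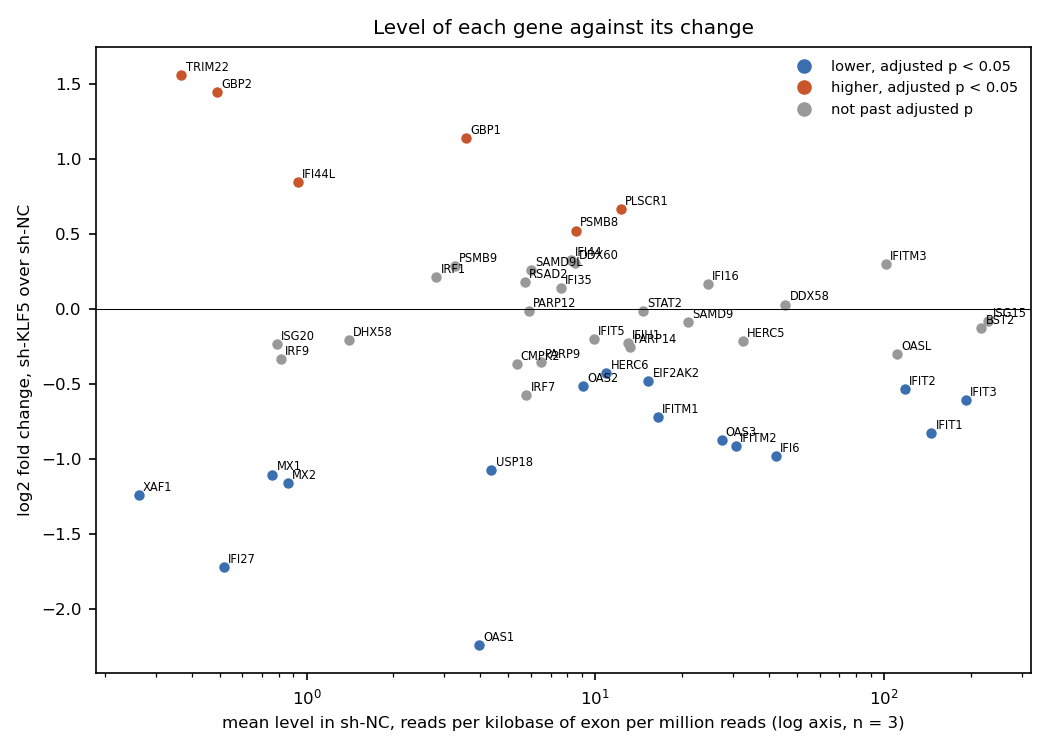
Level of each tested interferon-stimulated gene in sh-NC (RPKM, log axis, mean of 3 libraries) against its log2 fold change in sh-KLF5. Genes that passed the test are coloured by direction. ISG15 and BST2, the most abundant at 229.7 and 217 RPKM, lie near 0, and the genes with the lowest levels, XAF1 at 0.263 and TRIM22 at 0.369, lie on opposite sides.

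Genes past the adjusted p were found at high and at low levels. Among them the lower genes ran from XAF1 at 0.263 ± 0.014 to IFIT3 at 192 RPKM, and the higher ones from TRIM22 at 0.369 ± 0.111 to PLSCR1 at 12.2 ± 1.29. Those that also passed the fold threshold, 6 lower and 3 higher, were all at low levels. They ran from XAF1 to USP18 at 4.37 RPKM, ranks 48 and 34 of the 49 in sh-NC. In the order of sh-NC levels, ISG15 and BST2 did not differ beyond their spread, and the same held for OASL at 111 ± 8.9 and IFITM3 at 101 ± 12.5. Within groups the median SD of the 48 tested genes on the log2 scale was 0.128 for sh-NC libraries and 0.189 for sh-KLF5 libraries. All tested genes had 0.144 and 0.221. The 48 genes also had a higher median normalized count, 605 against 329, so spread was not compared at like levels. The sh-KLF5 libraries differed in their level of the set. The median deviation of the 48 genes from their group means was 0.094 in library 1, 0.009 in library 2 and -0.127 in library 3. For all tested genes this median was within 0.009 of 0 in every library, but the size factors hold it there, so it is no comparison. Over all genes, read counts of sh-KLF5 library 1 differed more from those of libraries 2 and 3 (chi-square per degree of freedom 23.5 and 30.4) than these did from each other (10.4).

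The wider pathway was read from further lists of ligands, receptors, regulators and other induced genes. Of 22 interferon genes only 6 were in the table and 3 could be tested. IFNL1, a lambda interferon, had 43, 47 and 35 reads in sh-NC and 11, 12 and 4 in sh-KLF5 (log2 fold change -2.19, SE 0.42, limma adjusted p = 0.00177). IFNL3 had 21, 14 and 19 reads against 4, 5 and 4 (log2 fold change -1.81, adjusted p = 0.018), and did not pass without sh-NC library 1 or 3 (adjusted p = 0.0963 and 0.0843). IFNL2, a near-identical copy of IFNL3, had 8, 3 and 12 reads against 1, 0 and 0, so reads may have been split between IFNL2 and IFNL3. IFNL1, IFNL2 and IFNL3 each had more reads in every sh-NC library than in any sh-KLF5 library, at very low counts. IFNB1, the type I interferon of non-immune cells, had 1 to 9 reads in every library with no order between groups, and IFNE did not pass (log2 fold change 0.43, adjusted p = 0.466).

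Of 9 receptor and kinase genes 1 passed (11.1%, close to the 12.9% of all tested genes). IFNGR1, the ligand-binding chain of the interferon gamma receptor, had normalized counts of 477, 499.6 and 489 in sh-NC and 1259.8, 967 and 1039.8 in sh-KLF5. It was 2.23-fold higher on average, with the groups far apart (log2 fold change 1.15, limma adjusted p = 1.19e-05). IFNGR2 changed by 0.07, IFNAR1 by -0.17 and the lambda receptor IFNLR1 by -0.19, none past the threshold in the fit over all 6 libraries. Without sh-KLF5 library 1, IFNAR1 passed at -0.32 (limma adjusted p = 0.02). Among 10 negative regulators 3 were higher (30%, against 6.04% of all tested genes) and none of the 10 passed in the other direction. That list left out USP18, which also dampens the type I receptor but was counted among the interferon-stimulated genes. USP18 was lower (log2 fold change -1.07, limma adjusted p = 0.0011). SOCS1, the inhibitor of JAK kinases, rose from 40, 41.4 and 28.6 to 102, 72.8 and 87.2 (log2 fold change 1.23, adjusted p = 0.00318). The repressor IRF2 rose by 0.60 (adjusted p = 0.00762) and the phosphatase PTPN1 by 0.42 (adjusted p = 0.0166). A list of sensing genes held mostly adaptors and kinases that act downstream of the sensors, but also the sensors TLR3 and CGAS, and ADAR. Of its 11 tested genes TBK1 alone passed, a share of 9.09% against 12.9% of all tested genes (log2 fold change 0.48, adjusted p = 0.0192). TBK1 did not pass without any 1 of the sh-NC libraries (adjusted p up to 0.0879), PTPN1 without sh-NC library 1 or 2 (up to 0.0995) and IRF2 without sh-NC library 2 (0.06).

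**Figure D5:**
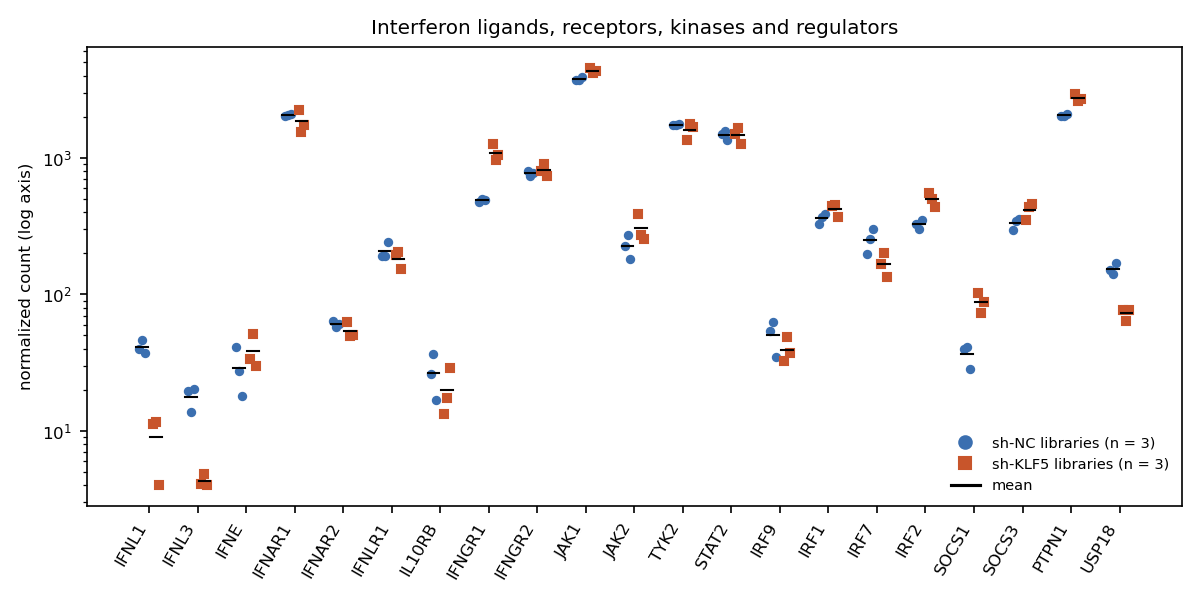
Normalized counts (log axis) of interferon ligands, receptors, kinases and regulators in each library, with circles for sh-NC, squares for sh-KLF5 (3 each) and bars for group means. IFNL1, IFNL3 and USP18 are lower in all sh-KLF5 libraries, IFNGR1, SOCS1, IRF2 and PTPN1 are higher in all of them, and STAT2 overlaps.

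A second list of 47 interferon-stimulated genes outside the 49 held more higher than lower genes by adjusted p, but not by the fold threshold. Of 44 tested, 6 were higher (13.6%, against 6.04% of all tested genes) and 2 were lower (4.55%, against 6.85%) at an adjusted p under 0.05. Together these were 18.2% of those tested (12.9% of all tested genes passed in either direction). The median log2 fold change of the 44 was 0.11. With the fold threshold CASP1 alone was higher (2.27%, against 1.9%), while WARS and LGALS3BP were lower (4.55%, against 3.37%). The inflammatory caspase CASP1 had normalized counts of 141, 119 and 118 in sh-NC and 441, 419 and 323 in sh-KLF5 (log2 fold change 1.63, limma adjusted p = 5.23e-06). B2M, the light chain of HLA class I, had 8189, 7792 and 8931 against 16081, 12529 and 10691 (log2 fold change 0.64, adjusted p = 0.00542). The other 4 that rose were PARP10 (0.67), GBP3 (0.64), TRIM5 (0.58) and SP100 (0.39). WARS, a tryptophan tRNA synthetase, had 11354, 11248 and 11261 against 5103, 5773 and 4968 (log2 fold change -1.10, adjusted p = 4.74e-06). The secreted glycoprotein LGALS3BP had 331, 304 and 328 against 114, 111 and 76.2 (log2 fold change -1.69, adjusted p = 8.9e-06). Without sh-NC library 3 the count of 6 fell to 3. TRIM5 passed only without sh-KLF5 library 3 when 1 library was left out (adjusted p up to 0.106), and SP100 lost its call in 4 of those 6 fits (up to 0.159).

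Marker genes of other kinds were read beside these. Epithelial ovarian markers summed to 53956 to 65955 normalized counts in sh-NC and 28525 to 38961 in sh-KLF5, a sum made up mostly of KRT7 and KRT8. Of 9 tested, KRT7, KRT8, KRT18 and MUC16 were lower (44.4%, against 6.85% of all tested genes), and the rest did not pass, with log2 fold changes from -0.33 for ERBB2 to 1.14 for KRT19. Stromal and endothelial markers summed to 662 to 987 and 290 to 649, a sum made up mostly of DCN and LUM. DCN alone passed of 4 tested (-1.82, limma adjusted p = 9.69e-05), LUM, PECAM1 and COL1A1 were at -0.45, -0.61 and 0.30, and CDH5 was at or near 0. Their part in the values of the interferon-stimulated genes was not tested. No housekeeping gene of 8 passed. In bulk RNA, fewer cells expressing a gene and less RNA per cell cannot be told apart.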

How the data were processed

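Polyadenylated RNA was sequenced from SKOV3 cells in 3 sh-NC and 3 sh-KLF5 libraries. Per the submitters' processing notes, the authors used HISAT2 2.0.5, featureCounts 1.5.0-p3 and DESeq2 1.20.0 with build hg38. The strand setting of the counting is not given in the sources used here. The deposited table holds a normalized signal per gene and library, which is the read count divided by a library size factor. All values were whole multiples of 1 read (100%, tolerance 1e-06), so the reads were recovered by division. Columns of the authors' own comparison (group means, log2 fold change and p-values as deposited) were not used. The deposited gene length was used for RPKM, and it equalled the exonic length from GENCODE 29 for all 29185 genes.

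Genes passing edgeR's filterByExpr (minimum count 10) were tested in limma 3.58.1 on log2(normalized count + 1), sh-KLF5 against sh-NC, over all 15803 genes with Benjamini-Hochberg adjustment. edgeR 4.0.16 and DESeq2 1.42.0 on the recovered reads, other filters and pseudocounts, a replicate block and leaving out each library were alternatives. Scripts were tested on simulated data. Totals of 15852319 to 17543896 reads put 3 reads at 0.171 to 0.189 CPM, which covers counting error only. Members past an adjusted p of 0.05 were named with values, as were defining genes of a role and up to 6 passing genes per pathway list, while values of further members were added after they were seen. The members, lists and tests were chosen with earlier results of these data known. Promoters came from RefSeq GRCh38.p14, 1 of the 39 by an older symbol. No other per-sample columns were left out.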

Additional observations from a re-analysis of the deposited data

How the results depend on the processing

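None of the 22 interferon-stimulated genes past the threshold lost its call under edgeR, DESeq2, TMM factors, library size alone, no filter on low counts, either pseudocount or the block, and IFI27 could not be tested when 10 reads were required of each library. By adjusted p the count of lower genes, 16, was 15 to 18 under these settings and 12 to 22 with 1 library left out, lowest without any sh-NC library or sh-KLF5 library 3 and highest without sh-KLF5 library 1. The count of higher genes, 6, was 4 to 6 with 1 library left out. With the fold threshold these ranges were 4 to 8 lower (4 without sh-KLF5 library 2, where XAF1 did not pass and USP18 was at -0.99) and 3 to 4 higher. The median log2 fold change of the tested genes ran from -0.24 to -0.16, and KLF5 from -1.62 to -1.48. For the second list, the 6 higher genes were 3 to 7 with 1 library left out, and the lower ones stayed at 2. SP100 lost its call with library size alone and with no filter. Sign changed only for genes that had not passed, in fits with 1 library left out, where log2 fold changes ran from -0.016 to 0.24 for IFI35, -0.14 to 0.14 for DDX58, -0.16 to 0.047 for ISG15, -0.10 to 0.096 for STAT2, -0.22 to 0.019 for SAMD9 and -0.072 to 0.033 for PARP12. Of the genes that had not passed, OASL, HERC5, CMPK2, IFIH1 and PARP14 passed without sh-KLF5 library 1 (adjusted p 0.00882 to 0.0472). The cause of these changes was not tested. Over all genes, 533 called lower became 811 with no filter and 231 when each library had to hold 10 reads.

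Deviations of libraries with the same replicate number correlated at 0.130, 0.0068 and 0.108, and those with different numbers at up to 0.043. The value for replicate 2 was low, and sh-NC library 2 did not correlate best with its own number, so the numbers were not taken to pair the libraries. A limma fit blocked on this number gave 18 genes lower and 6 higher, with IRF7 (adjusted p = 0.0255) and PARP9 (adjusted p = 0.0443) now past the threshold. The 6 higher genes of the second list became 10 in that block. Limiting the promoter windows to the 250 bases before the start left the ISRE core in 22 of 39. By outcome it was left in 6 of 11 lower genes, 3 of 4 higher genes and 12 of 23 that passed in neither direction. Reads were few for IFI27, XAF1, EPSTI1 and the interferon genes, so changes there were not detectable below these levels.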
